A study of Mus musculus with 12 samples.

Results

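A set of 10 genes of tumour necrosis factor (TNF) and interleukin-1 (IL-1) signalling were followed in mouse brain. They were picked by symbol and cover the cytokines Tnf, Il1a, Il1b, Il18 and Tgfb1, the receptors Tnfrsf1a and Il1r1, the receptor antagonist Il1rn, and Nfkbia and Tnfaip3, which shut the pathway down again. Of these 10 members, 9 had a row in a count table of 16482 genes and 6 had enough counts to be tested. All 6 of these passed the filter on low counts in each PBS sample, so none entered through a group in which it was high. Tnf, Il1b and Il1rn fell below the filter and are given as counts, and Il1a was not analysed here.

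TNF and the IL-1 cytokines are released mainly by microglia in the brain and bind receptors on microglia, astrocytes, endothelial cells and neurons. Both receptor types drive the transcription factor NF-kB, which is held in the cytoplasm by the inhibitor IkB-alpha, the product of Nfkbia, until that inhibitor is degraded. NF-kB then switches on inflammatory genes as well as Nfkbia and Tnfaip3, whose products end the signal, so the transcripts of these 2 inhibitors are widely used as readouts of NF-kB activity. TGF-beta 1, the product of Tgfb1, acts through other receptors, restrains inflammatory responses and is needed for the mature state of microglia.

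The samples were whole brains of C57BL/6 mice in 3 groups of 4. The PBS group received the vehicle, phosphate-buffered saline. The CBE group received conduritol B epoxide, a covalent inhibitor of the lysosomal enzyme glucocerebrosidase that is used to produce features of Gaucher disease in mice. The CBE+GZ-667161 group received CBE together with GZ-667161, an inhibitor of glucosylceramide synthase, which makes the lipid that glucocerebrosidase breaks down. Brains were taken at postnatal day 40, except that CBE replicates 2 and 3 were of day 34, which leaves CBE replicates 4 and 6 at the age of the other groups. No group received GZ-667161 alone, and the labels state no dose. The libraries followed a bulk MARS-seq protocol, a method that reads tags near the 3' end of transcripts. The labels do not say that the samples are different mice. The p-values therefore set the differences between groups against the spread of these samples only, and some of that spread may be technical.

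Totals ran from 1753626 to 6499257 counts per sample, and the CBE samples of day 34 were the shallowest. Markers fit the label of whole brain, since all listed markers of neurons (4), astrocytes (4), oligodendrocytes (4) and microglia (6) had counts in every sample. The summed level of the microglia markers was 352 to 361 CPM (counts scaled to the TMM library size) in PBS, 898 to 1060 CPM in CBE at day 34, 590 to 610 CPM in CBE at day 40 and 563 to 734 CPM in CBE+GZ-667161. Of these 6 markers, 4 were higher than in PBS in each of the 2 treated groups (edgeR, adjusted p under 0.05). The astrocyte markers summed to 1600 to 1840, 2140 to 2280 and 1470 to 1830 CPM in PBS, CBE and CBE+GZ-667161. Of these 4 markers, 2 were higher in CBE than in PBS and 2 passed between CBE+GZ-667161 and CBE. Summed markers reached no more than 8.89 CPM for T cells, 13.4 CPM for monocytes and border macrophages and 33.1 CPM for neutrophils in any sample. The first 2 sums rest on 3 of 5 listed T cell markers and 4 of 5 listed markers of monocytes and border macrophages. Erythroid markers summed to 1600 to 3300 CPM in PBS, 1050 to 1430 CPM in CBE and 1160 to 3330 CPM in CBE+GZ-667161, and 0 of 3 passed in any comparison with PBS. Neuron markers summed to 3020 to 3400 CPM in PBS and 2140 to 3220 CPM in CBE, with 1 of 4 lower in CBE. Those of oligodendrocytes summed to 4250 to 5170 CPM in PBS, 2110 to 4280 CPM in CBE and 2470 to 6070 CPM in CBE+GZ-667161. None of these 4 passed between any groups. Endothelial markers summed to 155 to 176 CPM in PBS and 114 to 182 CPM in CBE. Of these, 1 of 4 was lower in CBE than in PBS and 1 passed between the treated groups. Choroid plexus markers varied widely, from 16.3 to 111 CPM in PBS and 61.6 to 528 CPM in CBE, and none passed. In homogenised tissue, more cells of a type cannot be told apart from more RNA per cell. The part that microglia number plays in the results was not tested. Xist, the transcript of the inactive X chromosome of females, was above 5 CPM in 2 PBS, 0 CBE and 3 CBE+GZ-667161 samples. Treatment is thus partly confounded with the Xist level in each comparison with CBE, most of all in that with CBE+GZ-667161.

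Promoter sequences are shown for 4 members. Nfkbia and Tnfaip3 stand for the feedback genes, which NF-kB is known to induce, and Tnfrsf1a and Tgfb1 are the other members that passed the test in CBE against PBS. Each line gives 250 bases upstream of a RefSeq transcription start (GRCm38.p6), read 5′ to 3′ on the strand of the gene. Capitals mark matches to the 10-base NF-kB consensus, searched on both strands.
Nfkbia, chr12:55492648-55492897, minus strand: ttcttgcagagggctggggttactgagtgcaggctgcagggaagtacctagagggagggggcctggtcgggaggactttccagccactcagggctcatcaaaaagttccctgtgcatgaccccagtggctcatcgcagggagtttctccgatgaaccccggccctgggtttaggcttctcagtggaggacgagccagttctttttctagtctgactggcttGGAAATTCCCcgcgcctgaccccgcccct
Tnfaip3, chr10:19015411-19015660, minus strand: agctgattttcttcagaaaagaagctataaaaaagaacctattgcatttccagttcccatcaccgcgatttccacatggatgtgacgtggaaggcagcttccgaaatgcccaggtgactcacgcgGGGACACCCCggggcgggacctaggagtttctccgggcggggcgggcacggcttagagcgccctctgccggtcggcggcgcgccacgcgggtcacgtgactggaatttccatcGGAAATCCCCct
Tgfb1, chr7:25686752-25687001, plus strand: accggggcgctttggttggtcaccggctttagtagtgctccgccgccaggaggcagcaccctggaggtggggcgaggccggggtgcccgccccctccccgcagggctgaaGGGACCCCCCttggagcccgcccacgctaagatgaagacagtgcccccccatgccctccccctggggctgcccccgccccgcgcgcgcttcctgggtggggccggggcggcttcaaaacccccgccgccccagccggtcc
Tnfrsf1a, chr6:125349473-125349722, plus strand: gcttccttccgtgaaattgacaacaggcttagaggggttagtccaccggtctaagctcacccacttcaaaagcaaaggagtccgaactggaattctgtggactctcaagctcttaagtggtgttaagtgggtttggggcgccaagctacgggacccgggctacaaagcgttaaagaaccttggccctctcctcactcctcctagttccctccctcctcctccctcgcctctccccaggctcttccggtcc

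The Nfkbia window holds GGAAATTCCC at bases 29 to 20 before the start. The Tnfaip3 window holds GGGACACCCC at 125 to 116 and GGAAATCCCC at 12 to 3 before the start. The Tgfb1 window, with 75.2% G and C the richest in these bases of the 4, holds GGGACCCCCC at 140 to 131, and the Tnfrsf1a window holds no match. All 10 members had windows, 14 in all, and 4 windows of 4 members held a match, the remaining one being Il1r1 with GGAATGCCCC at 232 to 223. Across all RefSeq promoter windows of this length, 2382 of 32851 (7.25%) held a match. A match is a description of the letters and was not tested as a binding site.

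In CBE, 3 of the 6 tested members were higher than in PBS, namely Tnfrsf1a (3.43-fold), Tgfb1 (2.92-fold) and Nfkbia (1.62-fold), and none was lower. Tnfaip3, Il1r1 and Il18 did not pass. Over all 12623 genes tested, 11% passed in this comparison and 6.95% were higher. With GZ-667161 added, 1 of the 6 members, Tnfrsf1a, was higher than in PBS, where 3.45% of all genes passed and 3.11% were higher. Between CBE+GZ-667161 and CBE, 0 of the 6 passed in edgeR. Over all genes, 1.28% passed in edgeR in that comparison and 0.832% were lower. DESeq2 called 1 of the 6 there, with 489 calls over all genes, and limma-voom called 0. The 2 comparisons with PBS share the PBS samples and are given side by side.

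**Figure D1:**
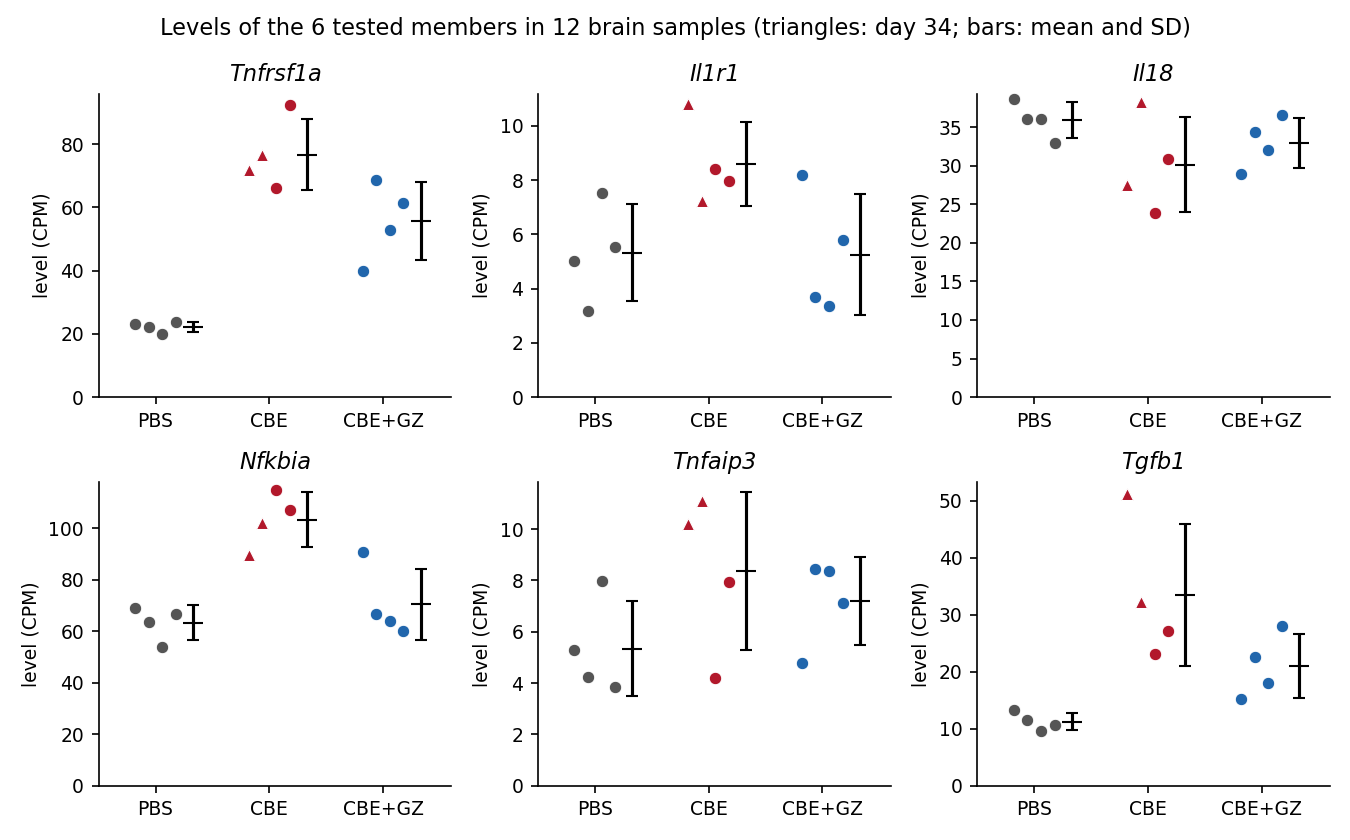
Level in CPM (vertical axes, starting at 0) of the 6 tested members in each of the 12 samples, by treatment, with day 34 samples as triangles and the group mean and SD as bars. Tnfrsf1a, Tgfb1 and Nfkbia have CBE samples entirely above PBS, from 66.2, 23.1 and 89.5 CPM upward, while Il18, Il1r1 and Tnfaip3 overlap.

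Tnfrsf1a (chr6:125349362-125362484) encodes TNF receptor 1, the widely expressed receptor through which soluble TNF signals. Its level was 23, 22.1, 20.1 and 23.8 CPM in PBS replicates 2, 3, 4 and 5. In CBE it was 71.7 and 76.6 CPM in the day 34 samples and 66.2 and 92.4 CPM in the day 40 samples. With GZ-667161 added, replicates 2, 3, 4 and 5 were at 40, 68.7, 52.7 and 61.5 CPM. Every treated sample lay above every PBS sample, whereas 1 CBE+GZ-667161 sample, replicate 3, reached into the CBE range. The means were 22.3 ± 1.61, 76.7 ± 11.3 and 55.7 ± 12.3 CPM (SD, n = 4). The log2 fold change was 1.78 ± 0.17 (SE; 95% interval 1.42 to 2.14) for CBE against PBS, with an edgeR adjusted p of 2e-06. For CBE+GZ-667161 against PBS it was 1.31 ± 0.17 (0.95 to 1.67), with an edgeR adjusted p of 8.8e-05. Both calls held under all 22 alternatives. The drop between CBE and CBE+GZ-667161 was -0.47 ± 0.16 on the log2 scale (-0.81 to -0.13, edgeR p 0.0103, adjusted p 0.16) and did not pass. The microglia markers named above were also higher in both treated groups, and their part in this result was not tested.

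Il1r1 (chr1:40225080-40317257) encodes the signalling receptor for IL-1, which in brain is found on endothelial cells and some neurons. It lay at 5.03, 3.19, 7.54 and 5.54 CPM in PBS replicates 2, 3, 4 and 5. It lay at 10.8 and 7.22 CPM in CBE at day 34 and at 8.4 and 7.95 CPM in CBE at day 40. With GZ-667161 added it lay at 8.18, 3.68, 3.35 and 5.79 CPM in replicates 2, 3, 4 and 5. The highest PBS sample overlapped the lowest CBE sample, and 3 of the 4 CBE+GZ-667161 samples lay below all CBE samples. None of the differences passed, with 0.71 ± 0.35 (-0.02 to 1.44, edgeR adjusted p 0.21) for CBE against PBS and -0.72 ± 0.35 (-1.45 to 0.02, edgeR adjusted p 0.31) for CBE+GZ-667161 against CBE. Each group held 81 to 88 counts of Il1r1.

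Tnf (chr17:35199381-35202007) encodes the founding cytokine of its family, and its transcript was close to the detection limit. The raw counts were 2, 0, 0 and 0 in PBS replicates 2, 3, 4 and 5. In CBE they were 2 and 1 at day 34 and 3 and 17 at day 40. With GZ-667161 added they were 6, 0, 3 and 2 in replicates 2, 3, 4 and 5. A single CBE sample, replicate 6, held most of the counts of its group. In CPM, the other CBE samples (0.555 to 1.08 CPM) lay just above the highest PBS sample (0.529 CPM) and inside the range of CBE+GZ-667161. A count of 0 in a PBS library allows up to 3 counts, which is 0.461 to 1.26 CPM in PBS replicates 3, 4 and 5. Pooled over samples and set per library size, CBE was 21 times PBS (95% exact binomial interval 5.18 to 183) and still 8 times PBS without replicate 6 (1.43 to 81.1). CBE+GZ-667161 was 5.95 times PBS (1.3 to 55.3) and 0.284 times CBE (0.125 to 0.607), or 0.744 times CBE without CBE replicate 6. These intervals cover counting error only, not the spread between samples. With no filter on low counts edgeR gave Tnf an adjusted p of 0.0419 for CBE against PBS, and in the authors' deposited table its adjusted p for PBS and CBE is 0.025. The other comparisons did not pass, with edgeR adjusted p of 0.528 for CBE+GZ-667161 against PBS and 0.44 against CBE, and 0.52 and 0.53 in the authors' deposited table.

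Il1b (chr2:129364570-129371139), the main secreted form of IL-1, showed no such rise in counts. Its raw counts were 0, 3, 0 and 3 in PBS, 2, 2, 1 and 2 in CBE and 1, 6, 1 and 0 in CBE+GZ-667161. The groups overlapped throughout, and the pooled ratio was 2.13 (0.612 to 7.66) for CBE over PBS, 1.44 (0.439 to 5.05) for CBE+GZ-667161 over PBS and 0.679 (0.215 to 2.2) for CBE+GZ-667161 over CBE, each interval including 1. Il1rn (chr2:24336853-24351494) encodes the secreted antagonist that occupies the IL-1 receptor without signalling. Its counts were 0, 1, 0 and 0 in PBS, 1, 3, 1 and 3 in CBE and 3, 4, 7 and 1 in CBE+GZ-667161. Each treated sample had at least 1 count, whereas 3 of 4 PBS samples had none, and the pooled ratio was 14.6 (1.95 to 647) for CBE and 16.2 (2.5 to 684) for CBE+GZ-667161. Without the filter the edgeR adjusted p of Il1rn was 0.0706 and 0.109 in these comparisons, so it did not pass. Il1rn was 1.11 times as abundant in CBE+GZ-667161 as in CBE (0.443 to 3.03).

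**Figure D2:**
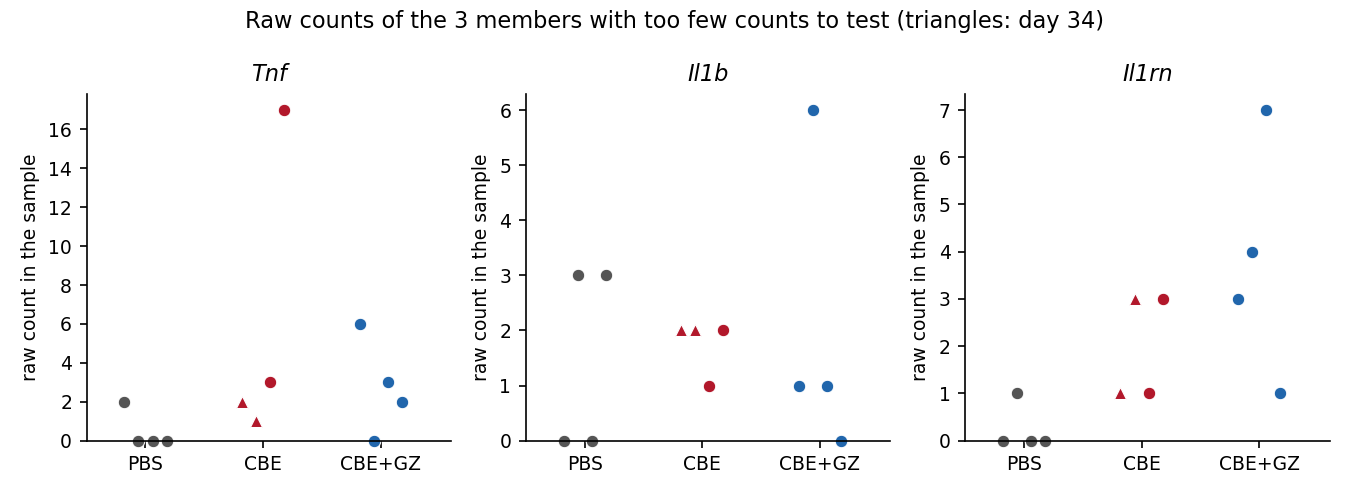
Raw counts per sample (vertical axes) of Tnf, Il1b and Il1rn by treatment, with day 34 samples as triangles. The 17 Tnf counts of 1 CBE sample stand apart from the 1 to 3 counts of the other CBE samples, and Il1b lies at 0 to 3 in all but 1 sample.

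Il18 (chr9:50554827-50581840) is an IL-1 family cytokine that is stored as a precursor and cut by caspase-1. It lay at 38.6, 36, 36 and 32.9 CPM in PBS, at 27.5, 38.3, 23.8 and 30.8 CPM in the CBE samples 2, 3, 4 and 6, and at 28.9, 34.4, 32 and 36.5 CPM in CBE+GZ-667161. The groups overlapped, and 3 of 4 CBE samples lay below all PBS samples. The difference was -0.26 ± 0.16 (-0.59 to 0.07, edgeR adjusted p 0.32) for CBE and -0.13 ± 0.15 (-0.44 to 0.19, edgeR adjusted p 0.83) for CBE+GZ-667161. The upper bounds lie below the change of each of the 3 members that passed in CBE.

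Nfkbia (chr12:55489410-55492647), the inhibitor of NF-kB introduced above, was higher in CBE than in PBS and did not pass with GZ-667161 added. It lay at 69.1, 63.6, 54 and 66.9 CPM in PBS replicates 2, 3, 4 and 5 and at 89.5, 102, 115 and 107 CPM in CBE replicates 2, 3, 4 and 6. With GZ-667161 added, replicates 2, 3, 4 and 5 lay at 90.7, 66.9, 64.2 and 60.1 CPM. All CBE samples were above all PBS samples. With GZ-667161 added, replicate 2 alone reached the CBE range, and the other 3 samples lay within the PBS range. The log2 fold change was 0.70 ± 0.14 (0.40 to 1, edgeR adjusted p 0.0036) for CBE against PBS and 0.15 ± 0.14 (-0.14 to 0.45, edgeR adjusted p 0.76) for CBE+GZ-667161 against PBS. The direct comparison of CBE+GZ-667161 with CBE gave -0.55 ± 0.14 (-0.84 to -0.25, edgeR p 0.00126, adjusted p 0.063), just short of the threshold. It passed in 3 of 22 alternatives. These were DESeq2 (adjusted p 0.0121), and edgeR without CBE+GZ-667161 replicate 2 (-0.69, adjusted p 0.04) or without the day 34 samples (-0.64, adjusted p 0.0387). In the other 19 it did not pass, among them the replicate block (-0.53, edgeR adjusted p 0.17) and leaving out the day 40 CBE samples (-0.44, edgeR adjusted p 0.35). The authors' deposited table gives an adjusted p of 0.011. The call of CBE against PBS ended without the day 40 CBE samples (0.60, edgeR adjusted p 0.0606). The summed astrocyte markers given above were likewise higher in CBE than in the other groups, and their part in the level of Nfkbia was not tested.

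Tnfaip3 (chr10:19000910-19015657) encodes A20, an enzyme that edits ubiquitin chains on signalling proteins below the TNF and IL-1 receptors. It lay at 5.29, 4.25, 7.96 and 3.85 CPM in PBS, at 10.2, 11.1, 4.2 and 7.95 CPM in the CBE samples 2, 3, 4 and 6, and at 4.77, 8.45, 8.37 and 7.13 CPM in CBE+GZ-667161. The highest values were those of the day 34 CBE samples, and both day 40 CBE samples lay within the PBS range. The log2 fold change was 0.67 ± 0.35 (-0.07 to 1.41, edgeR adjusted p 0.25) in CBE and 0.48 ± 0.34 (-0.23 to 1.19, edgeR adjusted p 0.63) in CBE+GZ-667161, and neither passed. For CBE against PBS it was 1.06 with the day 34 CBE samples alone and 0.25 with the day 40 CBE samples alone. With 75 to 116 counts per group, an increase the size of that of Nfkbia lies inside both intervals.

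Tgfb1 (chr7:25687002-25705077) lay at 13.2, 11.5, 9.63 and 10.6 CPM in PBS replicates 2, 3, 4 and 5. It lay at 51.2 and 32.2 CPM in CBE at day 34 and at 23.1 and 27.2 CPM at day 40. With GZ-667161 added, replicates 2, 3, 4 and 5 lay at 15.2, 22.5, 18 and 28.1 CPM. All treated samples were above all PBS samples, and the CBE+GZ-667161 samples overlapped the day 40 but not the day 34 CBE samples. The log2 fold change was 1.54 ± 0.25 (1.01 to 2.08, edgeR adjusted p 0.00053) for CBE against PBS, and it passed under all 22 alternatives. At day 40 alone it was 1.15 (edgeR adjusted p 0.0065). For CBE+GZ-667161 against PBS it was 0.87 ± 0.25 (0.34 to 1.40, edgeR adjusted p 0.076), which missed the threshold but passed in 6 of 22 alternatives. These were DESeq2 (adjusted p 0.0341), the fit of the 2 groups alone, and the edgeR fits without CBE replicate 2 (0.0302), without CBE+GZ-667161 replicate 2 (0.0414) and without either age of CBE sample. In the authors' deposited table its adjusted p is 0.038. CBE+GZ-667161 against CBE gave -0.68 ± 0.24 (-1.19 to -0.16, edgeR adjusted p 0.17), and -0.28 (edgeR adjusted p 0.53) against the day 40 CBE samples alone. The microglia markers were likewise highest in the day 34 CBE samples, and their part in the level of Tgfb1 was not tested.

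**Figure D3:**
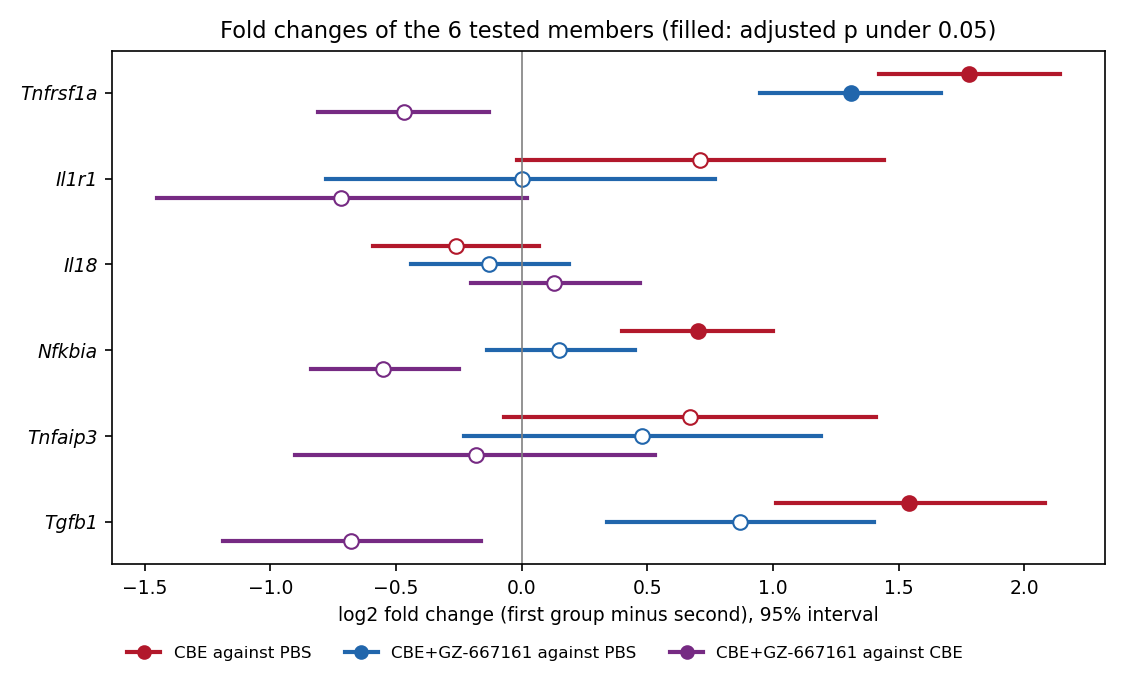
Log2 fold changes of the 6 tested members (horizontal axis) with 95% intervals for the 3 comparisons between groups, with filled points where the edgeR adjusted p was under 0.05. Tnfrsf1a is filled in both comparisons with PBS (1.78 and 1.31), Nfkbia and Tgfb1 only in CBE against PBS, and no point is filled between the 2 treated groups.

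Age was compared within the CBE group, where 0.665% of all genes passed between day 40 and day 34. No member passed in edgeR (0 of 6), and limma-voom called 0. DESeq2 gave an adjusted p for 4 of the 6 (not for Il1r1 or Tnfaip3) and called 0 of these. Tgfb1 was lower at day 40 by -0.73 ± 0.29 on the log2 scale (-1.35 to -0.11, edgeR adjusted p 0.24), and Tnfaip3 by -0.80 ± 0.46 (-1.78 to 0.17, edgeR adjusted p 0.42). Nfkbia (0.21 ± 0.19, -0.20 to 0.62, edgeR adjusted p 0.64) and Tnfrsf1a (0.10 ± 0.23, -0.39 to 0.59, edgeR adjusted p 0.88) were not lower at day 40. With 2 samples of each age these intervals are wide. Because the other groups were of day 40 throughout, age and treatment are separated in the comparisons only by the day 40 CBE samples. Against PBS these alone gave 1.82 for Tnfrsf1a (edgeR adjusted p 5e-05), 0.80 for Nfkbia (0.0058) and 1.15 for Tgfb1 (0.0065).

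The members were set among 91 genes in 9 role lists, called pathway genes here, of which 82 had a row and 62 were tested. Of the 91, 14 formed a TGF-beta arm, which acts through other receptors than those of TNF and IL-1. In CBE against PBS, 21 of the 62 were higher and 0 lower, a share of 33.9%, and the median log2 fold change was 0.42 against -0.01 over all genes tested. A gene that passes the filter only through the group in which it is high had to differ, so the count was repeated on the 47 genes at the filter cutoff of 2.89 CPM in all PBS samples. Of these, 10 were higher (21.3%), against 601 of 10957 genes (5.49%) with the same property. Without the members it was 7 of 41 (17.1%). The lists were chosen with earlier results of these data known. A share above that of all genes can come from that choice and is not support for the pathway. In CBE+GZ-667161 against PBS, 11 of 62 were higher and 0 lower, beside 3.11% higher over all genes. Of the 47 at the cutoff in PBS, 4 were higher there (8.51%), or 3 of 41 (7.32%) without the members, against 233 of 10957 genes (2.13%). In CBE+GZ-667161 against CBE, 2 of 62 were lower and 0 higher, beside 0.832% lower over all genes. Between the ages 0 of 62 passed in edgeR (0.665% of all genes), 0 in limma-voom (16 of all genes) and 2 in DESeq2 (247 of all genes). By role, the genes at the cutoff in all PBS samples that were higher in CBE were 0 of 3 ligands, 2 of 4 receptors, 1 of 2 cytokine processing genes, 1 of 14 adaptors and kinases, 1 of 4 NF-kB subunits, 1 of 7 feedback inhibitors, 1 of 2 NF-kB target genes and 3 of 11 in the TGF-beta arm. Of the genes named next, Tnfsf13b, Tnfrsf1b, Il18bp, Birc3, Bcl3, Nfkbie, Zc3h12a, Ccl2, Tlr2 and Icam1 were below that cutoff in at least 1 PBS sample, so their calls are given as values and not as support for a role.

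**Figure D4:**
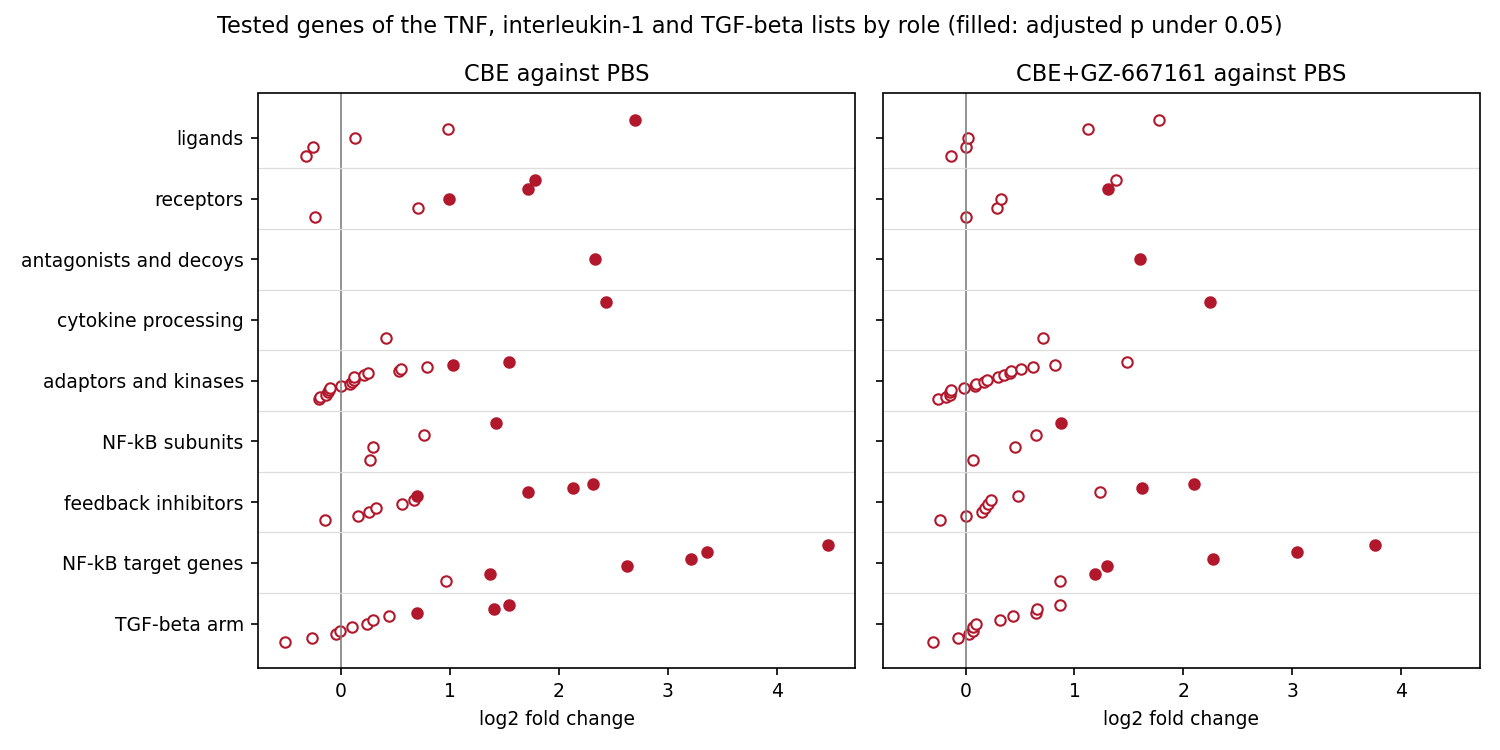
Log2 fold changes (horizontal axes) of the 62 tested pathway genes by role, for CBE against PBS on the left and CBE+GZ-667161 against PBS on the right, with filled points where the edgeR adjusted p was under 0.05. On the left 21 points are filled and on the right 11, all at positive values; of the 62 genes, 47 were at the filter cutoff in all PBS samples and hold 10 of the filled points on the left and 4 on the right.

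Among ligands and receptors, Tnfsf13b, which encodes the B cell survival factor BAFF, rose by 2.70 ± 0.54 on the log2 scale in CBE (edgeR adjusted p 0.0034), and was at 1.78 ± 0.56 (0.11) with GZ-667161 added. Tnfrsf1b, the second TNF receptor, rose by 1.72 ± 0.43 in CBE (edgeR adjusted p 0.015), a call that ended without PBS replicate 5 (0.0519) or CBE replicate 6 (0.0542) and with the replicate number as a block (0.0822). Ltbr, the lymphotoxin beta receptor, rose by 0.99 ± 0.13 in CBE (edgeR adjusted p 8.5e-05), at 60.9, 63.9, 55.7 and 56.6 CPM against 33.3, 30.4, 28.9 and 26.6 CPM in PBS. With GZ-667161 added Ltbr lay at 36.6, 34.4, 34.9 and 44.5 CPM, below every CBE sample. It fell by 0.66 ± 0.13 against CBE (edgeR adjusted p 0.026), a call that ended in 9 of 22 alternatives, among them Xist as a covariate and leaving out CBE replicate 4 or 6 or the samples 2, 3 or 4 of CBE+GZ-667161 (adjusted p up to 0.14). Il18bp, a secreted decoy that binds IL-18, rose by 2.33 ± 0.38 in CBE (edgeR adjusted p 0.00049) and by 1.60 ± 0.38 in CBE+GZ-667161 (0.023). The second of these ended on leaving out 1 of 4 samples (PBS replicates 4 and 5, CBE+GZ-667161 replicates 3 and 4), with adjusted p of 0.0638 to 0.0876, and in limma-voom (0.0515).

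Inside the cell, Pycard, the adaptor of the inflammasome that activates caspase-1, rose in both treated groups. Its change was 2.43 ± 0.27 in CBE (edgeR adjusted p 9.8e-06) and 2.24 ± 0.26 in CBE+GZ-667161 (3.8e-05). The Il18 transcript did not pass in either group, and the cutting of its protein by caspase-1 was not measured. Myd88, the adaptor of IL-1 and Toll-like receptors, rose by 1.03 ± 0.27 in CBE (edgeR adjusted p 0.02), and Birc3, a ubiquitin ligase of the TNF receptor complex, by 1.54 ± 0.42 (0.024). The Myd88 call ended without PBS replicate 4 (0.0559) and with Xist as a covariate (0.0904). The Birc3 call ended without PBS replicate 3, 4 or 5 or CBE replicate 4 or 6 (0.0557 to 0.0832), with Xist as a covariate (0.109) and with the replicate number as a block (0.181). Of the NF-kB subunits, Nfkb2 rose by 1.42 ± 0.23 in CBE (edgeR adjusted p 5e-04) and by 0.88 ± 0.23 with GZ-667161 added (0.039), the latter ending in 9 of 22 alternatives, among them leaving out any PBS sample, CBE replicate 6 or the samples 2, 3 or 4 of CBE+GZ-667161 (0.0511 to 0.136). Nfkb1 (0.27 ± 0.19, edgeR adjusted p 0.40) and Rela (0.29 ± 0.15, 0.26) did not pass in CBE.

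In the list of feedback inhibitors, 4 of the 10 tested genes, Nfkbia among them, were higher in CBE and 6 did not pass, beside 6.95% higher over all genes. Of the 7 at the filter cutoff in all PBS samples, 1 was higher, beside 5.49% of all such genes. Bcl3, a nuclear IkB protein, was placed in this list, which does not show that it acts as an inhibitor here. It rose by 2.31 ± 0.41 in CBE (edgeR adjusted p 0.0013) and by 2.10 ± 0.40 in CBE+GZ-667161 (0.0046). Nfkbie, which encodes IkB-epsilon, rose by 1.72 ± 0.40 and 1.62 ± 0.39 (edgeR adjusted p 0.01 and 0.025), the second ending in limma-voom and on leaving out PBS replicate 2, 3 or 4 or the samples 3, 4 or 5 of CBE+GZ-667161 (0.0636 to 0.0776). Zc3h12a, an RNase that degrades cytokine transcripts, rose by 2.13 ± 0.58 in CBE (edgeR adjusted p 0.025), which ended without PBS replicate 3 or CBE replicate 4 or 6 (0.0587 to 0.0734). Without the day 40 CBE samples, the CBE calls of Tnfsf13b (0.16), Tnfrsf1b (0.271), Birc3 (0.286) and Zc3h12a (0.217) ended, and without the day 34 CBE samples those of Myd88 (0.121) and Nfkbie (0.0851). In CBE+GZ-667161 against PBS, Bcl3 and Nfkbie thus passed and Nfkbia did not, and the difference between these genes was not tested.

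Of the 6 tested NF-kB target genes, 5 were higher in CBE and 1, Vcam1, did not pass (0.96 ± 0.31, edgeR adjusted p 0.058). The share higher over all genes tested was 6.95%. Only 2 of the 6 were at the filter cutoff in all PBS samples, and 1 of these was higher, beside 5.49% of all such genes. The NF-kB target genes named by the rule had low levels in PBS. Ccl2, a chemokine for monocytes, rose by 4.47 ± 0.54 in CBE (edgeR adjusted p 2.9e-05) and by 3.76 ± 0.55 in CBE+GZ-667161 (0.00034). Tlr2, a receptor for microbial lipoproteins, rose by 3.21 ± 0.33 (edgeR adjusted p 5.1e-06) and 3.04 ± 0.33 (1.6e-05). Icam1, an adhesion protein for leukocytes, lay at 4.23, 4.47, 2.09 and 3.85 CPM in PBS, 17.2, 15.6, 33.6 and 26.2 CPM in CBE and 6.13, 10.6, 9 and 12.5 CPM in CBE+GZ-667161, with no overlap between any 2 groups. Icam1 rose by 2.62 ± 0.31 in CBE (edgeR adjusted p 2e-05) and by 1.30 ± 0.32 in CBE+GZ-667161 (0.027), and it fell by 1.32 ± 0.28 between CBE and CBE+GZ-667161 (0.033). The last of these ended in the same 9 alternatives as for Ltbr (adjusted p up to 0.36), and the second on leaving out 1 of 6 samples (PBS replicates 2, 4 and 5, CBE+GZ-667161 replicates 3, 4 and 5) as well as in limma-voom and with the replicate number as a block (adjusted p up to 0.082).

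In the TGF-beta arm beside Tgfb1, Nrros, which holds latent TGF-beta 1 on the surface of microglia, rose by 1.40 ± 0.26 in CBE (edgeR adjusted p 0.0019) and was at 0.44 ± 0.26 (0.54) with GZ-667161 added. Tgfbr1, a subunit of the TGF-beta receptor, rose by 0.70 ± 0.20 in CBE (edgeR adjusted p 0.033), a call that ended without PBS replicate 3, 4 or 5 or CBE replicate 2 or 3 (0.0556 to 0.103), and which was 0.38 (0.27) without the day 34 samples. The remaining 8 of the 11 tested genes of this arm did not pass, where 11% of all genes passed. In CBE+GZ-667161 against PBS 0 of 11 passed, beside 3.45% of all genes.

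For each member that passed, the genes with the most similar pattern over the 12 samples were found by the root mean square difference in centred log2(CPM + 1). Arpc1b (0.178) and Ctsl (0.179) were nearest to Tnfrsf1a, Ano6 (0.149) and Uimc1 (0.163) to Nfkbia, and Nuak2 (0.202) and Fxyd1 (0.225) to Tgfb1. The choice was not stable, since leaving out 1 sample or 1 age kept between 0 and 2 of each pair.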

How the data were processed

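RNA from 12 whole-brain samples was sequenced as 3' tags. The authors deposited raw counts per gene symbol. The tools named in the submitters' processing notes are HISAT 0.1.6, cutadapt, DESeq2 and HTSeq, without role or order, and the build is mm10. Handling of molecular identifiers, annotation and strand are not given in the sources used here; without stated strand, reads of overlapping genes cannot be told apart. In 23 of 16505 entries a date stood in place of a symbol (0.266% to 0.347% of counts), and these were left out. Log2 fold changes and adjusted p-values in the authors' deposited table are quoted where named; their table of normalized values was not used.

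The filter was filterByExpr with a minimum count of 10 and a minimum total of 15. Counts were scaled by TMM, and the test was the quasi-likelihood F test of edgeR 4.0.16 in 1 fit of the 3 groups. The ages were compared in a fit of 4 groups. P-values were adjusted by Benjamini and Hochberg over all 12623 genes, with a threshold of 0.05. SEs are the log2 fold change divided by the square root of the F statistic, and intervals use the t distribution of the fit. The biological coefficient of variation was 0.193, and chi-square per degree of freedom between samples of a group was 3.53 to 13.3, so no samples were merged. Levels are CPM, with the TMM-scaled library size as the total. Low genes are given as pooled counts with 95% exact conditional binomial intervals, which cover counting error only.

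The members, the 9 role lists and the markers were chosen with earlier results of these data known. From each list, up to 3 genes that passed in CBE against PBS and up to 2 in CBE+GZ-667161 against CBE were named by smallest p, with Tnfrsf1b, Casp1, Nfkb1 and Rela in any case; Casp1 was not analysed here. Alternatives were other scaling factors, no filter, DESeq2 1.42.0, limma-voom (limma 3.58.1), fits of 2 groups, the replicate number or Xist as a term, and leaving out each sample or either CBE age. Fits on fewer samples kept the same 12623 genes. Positions are from GENCODE for mm10, and promoter windows from RefSeq (GRCm38.p6). R 4.3.3 and Python 3.11.15 were used.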

Additional observations from a re-analysis of the deposited data

Results flagged for a closer look

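In 84 groups of 4 samples, 5 values stood apart from the other 3 by Dixon's criterion, which flags about 1 in 20 groups by chance. Tnf was 5.63 CPM in CBE replicate 6, against 0.555 to 1.08 CPM in the other CBE samples, and the results on Tnf are given above with and without it. Tnf in PBS replicate 2 (0.529 CPM) and Il1rn in PBS replicate 3 (0.213 CPM) stood apart because the other 3 PBS samples had 0 counts. Zc3h12a was lowest in CBE replicate 2 at 2.16 CPM, against 4.55 to 5 CPM in the others. Tlr2 was lowest in CBE+GZ-667161 replicate 2 at 16.1 CPM, against 32.5 to 34.7 CPM.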

How the results depend on the processing

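Of 514 values of the tested members under alternatives, 490 kept their direction and side of the threshold, 1 lost its call, 9 gained one and 14 changed sign, none of the last from a called value. Members passing in CBE+GZ-667161 against PBS went from 1 to 2 with DESeq2, with only the 2 groups compared and without the CBE samples of either age (1 to 2 leaving out each sample), Tgfb1 being the addition. Between CBE+GZ-667161 and CBE it was 1 with DESeq2 and 1 without day 34 (0 to 1 leaving out each sample), Nfkbia in each case. Pathway genes there were 2, and 4 with DESeq2, 0 with 2 groups, 0 with Xist and 0 without day 40 (0 to 4 leaving out each sample), while against PBS leaving out each sample gave 7 to 13 for CBE+GZ-667161. DESeq2 called 2 between the ages.

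Sign changes touched only values that did not pass. Il1r1 in CBE+GZ-667161 against PBS became 0.019 with total counts as scaling, 0.0029 with 2 groups and 0.0031 without day 40, and ran from -0.33 to 0.19 over samples left out. In CBE+GZ-667161 against CBE, Tnfaip3 became 0.24 without day 34 and Il18 -0.0091 without day 40. Between ages, leaving out samples took Tnfrsf1a from -0.16 to 0.32 and Il1r1 from -0.40 to 0.18. The cause was not tested.

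Replicate numbers did not pair the samples: correlations of the 10 same-numbered pairs ran from -0.078 to 0.25, 1 of them over 0.1, and 3 of 11 samples correlated best with their own number. With the replicate block, 3, 1, 0 and 0 members passed in the 4 comparisons, pathway genes in CBE+GZ-667161 against CBE went from 2 to 0, and Tnfrsf1a between ages became -0.088. Over all genes, the block gave 82 calls between the treated groups, where the main analysis gave 56 higher and 105 lower, and 9 against 84 between ages. Other counts over all genes that moved by over 1.5 times were 741 against 1387 in CBE against PBS without day 40. Between the treated groups they were 489 (DESeq2), 24 (2 groups), 68 (Xist), 696 (without day 34), 2 (without day 40) and 5 to 271 leaving out each sample. Between ages they were 247 (DESeq2), 16 (limma-voom) and 0 to 103. Counts are fewest for Tnf, Il1b and Il1rn, where depth limits what can be said.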

Other observations

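Pathway genes below the filter on low counts add a few values, each chosen after its counts were seen and given with counting error only. Cxcl1, a chemokine for neutrophils and an NF-kB target, had 0, 2, 0 and 0 counts in PBS, 5, 0, 4 and 5 in CBE and 3, 1, 7 and 6 in CBE+GZ-667161. Per library size that was 12.8 times PBS in CBE (2.93 to 116) and 9.2 times in CBE+GZ-667161 (2.18 to 82.1). Ptgs2 and Nos2, also NF-kB target genes below the filter, had intervals that included 1 in both groups. Ptgs2 was 1.42 times PBS in CBE (0.833 to 2.39) and 0.662 times in CBE+GZ-667161 (0.371 to 1.16). Nos2 was 0.981 times (0.331 to 2.65) and 1.08 times (0.462 to 2.54). Tnfsf10, which encodes the death ligand TRAIL, had 2, 8, 1 and 6 counts in PBS, 3, 7, 0 and 0 in CBE and 10, 18, 15 and 6 in CBE+GZ-667161. Its ratio to PBS was 1.07 in CBE (0.439 to 2.48) and 3.12 in CBE+GZ-667161 (1.77 to 5.78). Il1r2, the decoy receptor for IL-1, was 4.56 times PBS in CBE (1.67 to 14.3), with 9 of its 15 CBE counts in replicate 6, the sample with the highest Tnf, and 1.08 times in CBE+GZ-667161 (0.289 to 4.05).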
